A study of Mus musculus with 6 samples.

Results

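Marker and maturation genes of dendritic cells were followed in tumors that the mouse melanoma line B16 formed in C57BL/6 mice, the strain from which it derives. The list held 10 genes chosen by symbol. The annotation at hand covered only the 20346 probes that the authors processed, of 45281 on the array. It named a probe for 11092 genes, and all gene tests below are limited to these. Siglech stands for plasmacytoid dendritic cells, Itgax, Zbtb46, Batf3, Irf4, Naaa and Ly75 for conventional dendritic cells, and Ccr7, Fscn1 and Cd83 for dendritic cell maturation. Of the 10, 6 had a named probe, 8 probes in all. No probe was named for Itgax, Irf4, Naaa or Ly75 in that annotation, so those 4 were not analysed here. Whether the array's other probes include any of them is not known here. All 6 genes passed the detection filter and were among the 10523 genes tested. Siglech passed it through the small tumors alone, the group in which it was higher, so its place among the tested genes already depended on that difference.

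Each mouse had received 400000 B16 cells, and tumors were taken on day 8, freed of adjacent normal tissue, and grouped by area. Large tumors measured 70 to 80 mm2 (3 arrays, replicates 1 to 3) and small tumors 10 to 20 mm2 (3 arrays, replicates 1 to 3). No treatment or genetic change beyond the inoculated line is given for either group. The labels do not say whether replicates came from separate mice or days, and the p-values therefore reflect only how much these 6 samples varied, which may be technical. In whole tumors, fewer cells of a type and less RNA per cell cannot be told apart.

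Dendritic cells take up antigen and present it to T cells. Plasmacytoid dendritic cells are known for making type I interferon after sensing nucleic acids, and the conventional type splits into a Batf3-dependent branch that cross-presents tumor antigen to CD8 T cells and an Irf4-dependent branch that favours CD4 T cells. On maturation a dendritic cell raises costimulatory molecules, extends actin-rich processes and migrates to lymph nodes along the chemokines that Ccr7 senses. Few of these genes belong to dendritic cells alone: Ccr7 and Cd83 are also made by lymphocytes, Zbtb46 by endothelial cells and Fscn1 by many invasive tumor cells.

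The RefSeq promoter table (GRCm38.p6) held 8 of the 10 genes, 250 bases before to 50 after the annotated start. The promoters of Siglech and Batf3 are shown because these genes mark the plasmacytoid and the Batf3-dependent conventional branch and are the marker genes whose normalized values were lower in every large than in any small tumor. Capitals mark the letters CANNTG, the E-box that E proteins such as Tcf4, a regulator of plasmacytoid dendritic cells, can bind. The motif reads the same on both strands.
Siglech, chr7:55767934-55768233, plus strand: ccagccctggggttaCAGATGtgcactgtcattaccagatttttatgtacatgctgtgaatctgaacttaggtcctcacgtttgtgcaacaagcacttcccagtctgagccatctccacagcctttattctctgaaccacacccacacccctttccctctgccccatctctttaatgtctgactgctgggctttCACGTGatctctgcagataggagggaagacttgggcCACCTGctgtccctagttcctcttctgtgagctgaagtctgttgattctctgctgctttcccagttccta
Batf3, chr1:191098164-191098463, plus strand: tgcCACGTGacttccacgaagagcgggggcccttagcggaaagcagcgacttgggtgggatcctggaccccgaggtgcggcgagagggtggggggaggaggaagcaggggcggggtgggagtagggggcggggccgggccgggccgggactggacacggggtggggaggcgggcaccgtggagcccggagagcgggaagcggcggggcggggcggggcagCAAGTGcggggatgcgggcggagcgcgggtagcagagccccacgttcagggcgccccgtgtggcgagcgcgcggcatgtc
The Siglech window held 3 such matches and the Batf3 window 2, and 72.3% of all 32851 promoters in the table held at least 1. The letters CACGTG, a particular case of CANNTG, occurred once in each of these windows and in 7.15% of all promoters. Which factor might bind them was not tested. The letters GAGGAA, searched on both strands as the core that the myeloid factor PU.1 can bind, occurred once in each and in 28.3% of all promoters. In the windows not shown, CANNTG occurred 6 times for Zbtb46, 2 times for Itgax and 1 time for Irf4. It occurred 0 times for Naaa, Ly75 and Fscn1. Of the windows not shown, none held CACGTG and only that of Irf4 held GAGGAA, 1 time. A further motif, GAAA repeated after any 2 letters, was also searched and had 0 matches in all 8 windows. It occurred in 3.44% of all promoters. A match is only a run of letters, and binding was not measured here.

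Arrays differed in brightness. The median signal was 117 to 128 in large and 104 to 115 in small tumors, and small replicate 1 was the dimmest array, with 17310 probes detected at a detection p under 0.05 against 18331 to 19771 on the others. Most probes of these genes lay close to the detection limit, which was a signal of 124 to 139 in large and 111 to 121 in small tumors, and 4 of the 8 probes were detected on all 6 arrays. Values below are therefore given both as deposited signals and as log2 signals after background correction and quantile normalization (neqc, offset 16).

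Siglech fell in large tumors and was the only one of the 6 genes to pass the test. It was called at an adjusted p under 0.05 in limma's moderated test, as were 2.47% of all genes tested (1.68% as lower and 0.789% as higher in large tumors). With each named probe tested on its own, 1 of the 8 probes, that of Siglech, was called, beside 3.28% of all probes (1.77% as lower). Of the 6 genes, 5 had a negative and 1 a positive log2 fold change, with a median of -0.63 against -0.00096 over all genes tested. At an unadjusted p under 0.05 there were 3 of 6, Siglech, Cd83 and Batf3, beside 22.5% of all genes. The groups did not overlap in those 3 genes, beside 29.6% of all genes tested.

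**Figure D1:**
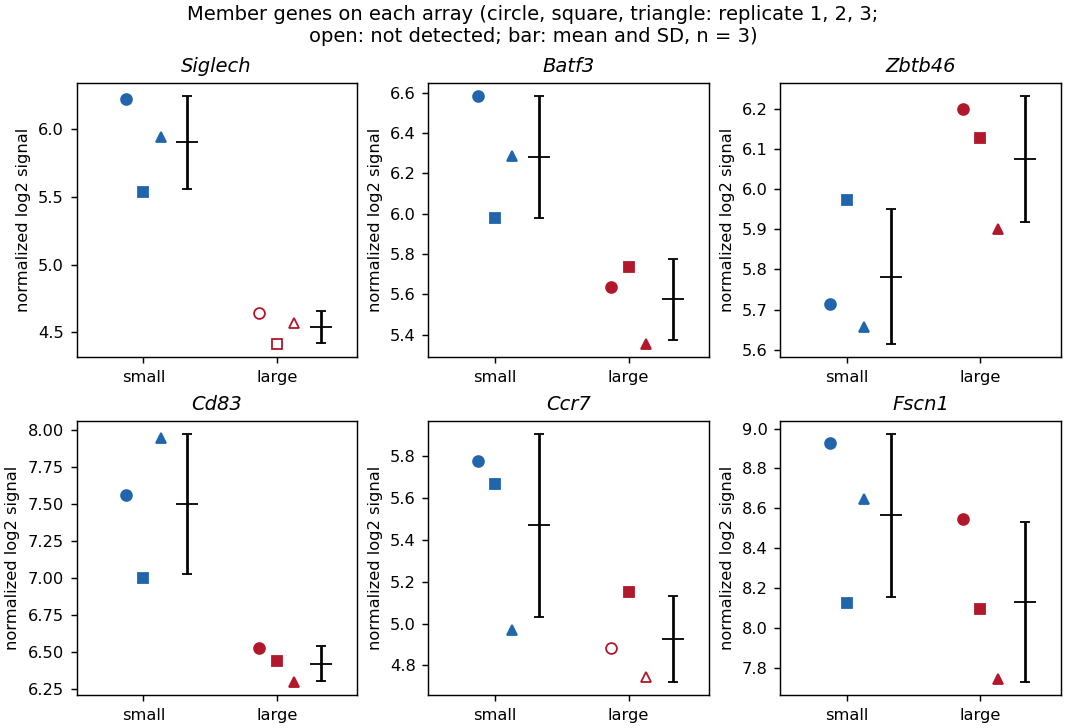
Normalized log2 signal of the 6 measured genes (y axis, log2 scale) on each array, small tumors on the left and large on the right of each panel. Points are replicates 1 to 3 (circle, square, triangle), open points were not detected, and bars are the mean and SD of 3 arrays. The groups are apart for Siglech, Batf3 and Cd83 and overlap for Zbtb46, Ccr7 and Fscn1.

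Siglech encodes Siglec-H, a sialic acid-binding surface receptor by which mouse plasmacytoid dendritic cells are recognised. Its single probe (ILMN_2928599) had deposited signals of 115, 116 and 119 in large replicates 1 to 3 and of 129.9, 138 and 154 in small replicates 1 to 3. Detection p-values were 0.166, 0.607 and 0.241 in large tumors and 0.00427, 0.00321 and 0 in small tumors. Every small tumor thus had a detected signal and no large tumor did, and the groups did not overlap even before normalization, although the large-tumor arrays were the brighter ones. Normalized log2 signals were 4.64, 4.41 and 4.56 in large replicates 1 to 3 against 6.23, 5.54 and 5.94 in small replicates 1 to 3. Means were 4.54 ± 0.12 and 5.90 ± 0.35 (SD, n = 3 each). The log2 fold change was -1.36 ± 0.19 (SE; 95% confidence interval -1.81 to -0.92; limma adjusted p = 0.0324). The probe was not detected in any large tumor, so the fold was also computed with each large array's lowest detected signal instead. That gave a mean 1.91-fold lower in large tumors on the neqc scale. This figure allows for no sampling error and holds for that scale only, so smaller differences are not excluded.

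In the authors' deposited table of processed values Siglech was at the table's lower bound of 28.8 in all 3 large tumors, against 66.7, 39.7 and 67.3 in small replicates 1 to 3. On those values the log2 fold change was -0.97 (limma adjusted p = 0.0703). The size of the difference changed with the processing. It was -0.72 with offset 50 and -0.46 where signals were quantile normalized with no background step (limma adjusted p = 0.0304 and 0.0389). The call ended when any 1 large tumor or small replicate 3 was omitted (large replicates 1 to 3 and small replicate 3 in turn: log2 fold change -1.42, -1.30, -1.38 and -1.34, limma adjusted p = 0.064, 0.107, 0.114 and 0.108).

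**Figure D2:**
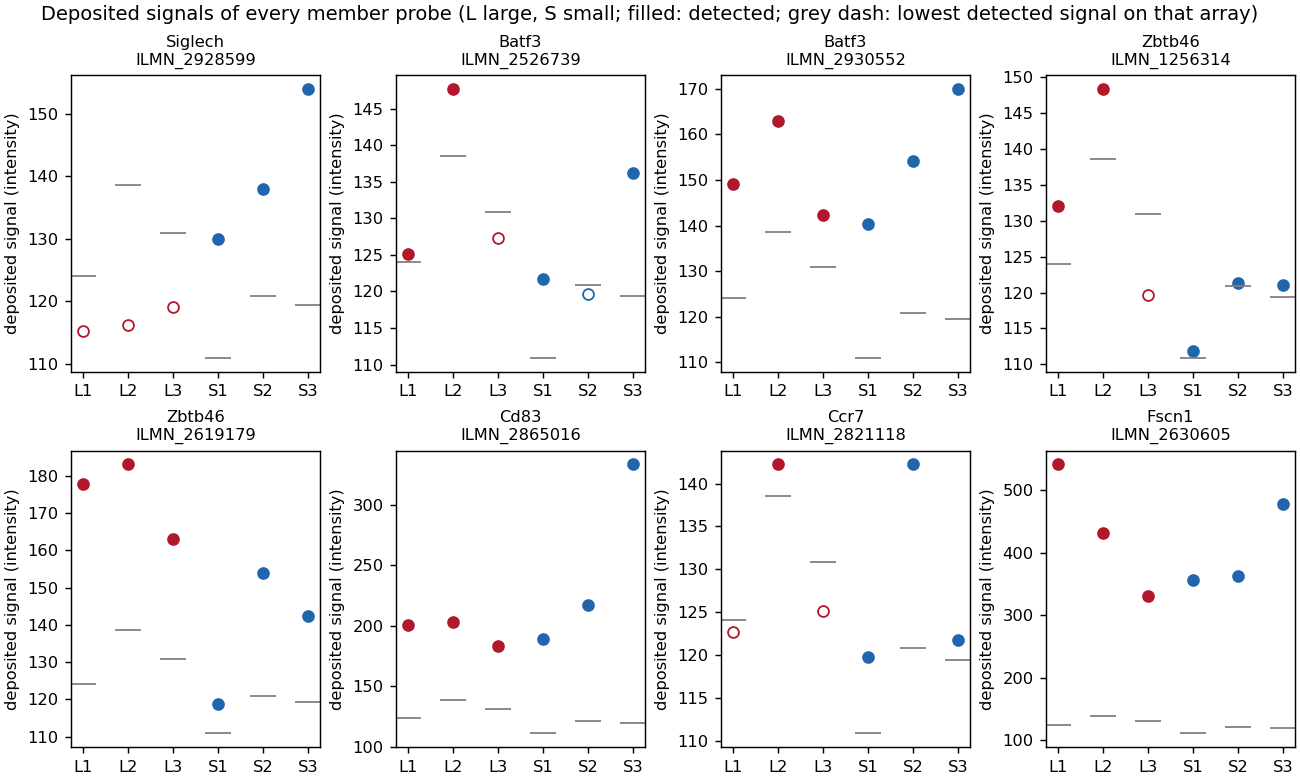
Deposited signal (y axis, linear intensity without background subtraction) of all 8 probes on large replicates 1 to 3 (L1 to L3) and small replicates 1 to 3 (S1 to S3). Filled points were detected, and grey dashes are the lowest detected signal on the array. Siglech lies under the dash on all 3 large and above it on all 3 small arrays, while Batf3, Ccr7 and Fscn1 signals overlap between the groups.

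Of 13 further genes linked to plasmacytoid dendritic cells, 8 were tested. By limma 1 fell and none rose, beside 1.68% of all genes called as lower. At an unadjusted p under 0.05 (limma) there were 5, beside 22.5% of all genes, and 1 of them, Ptprs, was higher in large tumors. The median log2 fold change was -0.35. The gene that fell was Cox6a2, at -1.55 ± 0.24 (limma adjusted p = 0.0374), with normalized log2 signals of 8.49 to 9.07 in large and 10.01 to 10.69 in small tumors. Cox6a2 is best known as the heart and skeletal muscle form of a cytochrome oxidase subunit. All 10 skeletal muscle markers also fell, with a median of -2.04, and their part in the Cox6a2 value was not tested. Bst2, a surface protein of mouse plasmacytoid dendritic cells that interferon also induces in other cells, was at -0.99 ± 0.32 and Irf7, the transcription factor behind their interferon production, at -1.25 ± 0.55 (limma adjusted p = 0.138 and 0.236). Tcf4, the lineage's E protein, was at -0.34 ± 0.14 and Ptprs, a receptor phosphatase on these cells, at 0.35 ± 0.14 (limma adjusted p = 0.208 and 0.194). Of the 8 values, 7 were negative and 1, that of Ptprs, was positive. Spib, a transcription factor of plasmacytoid dendritic cells and B cells, was detected on 1 array and not tested. The Cox6a2 call ended without large replicate 1, 2 or 3 or small replicate 1 or 3.

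Among conventional dendritic cell genes, the 2 that could be measured lay on opposite sides of 0 and neither passed the test. Batf3, the AP-1 factor needed for cross-presenting dendritic cells, had 2 probes. The brighter (ILMN_2930552) was detected on all 6 arrays, with deposited signals of 149, 163 and 142 in large replicates 1 to 3 against 140.4, 154 and 170.0 in small replicates 1 to 3. Those signals overlapped between the groups. After normalization they did not, at 5.64, 5.74 and 5.35 in large replicates 1 to 3 against 6.58, 5.98 and 6.29 in small replicates 1 to 3. The log2 fold change was -0.71 ± 0.18 (95% confidence interval -1.15 to -0.27; limma adjusted p = 0.0944). The other probe (ILMN_2526739) was detected on 2 large and 2 small arrays, and its normalized values of 4.82 to 5.33 in large and 4.87 to 5.87 in small tumors overlapped. It was at -0.37 ± 0.27 in the test of every probe (limma adjusted p = 0.454). On the authors' deposited table the brighter probe was at -0.38 and its values overlapped (limma adjusted p = 0.255), and with quantile normalization alone at -0.28.

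Zbtb46, a zinc finger factor that marks conventional dendritic cells and is also made by endothelial cells, was the gene with the positive value. Its brighter probe (ILMN_2619179) was detected on every array, with deposited signals of 178, 183 and 163 in large replicates 1 to 3 against 119, 154 and 142 in small replicates 1 to 3. These did not overlap, with large tumors the higher. After neqc the groups overlapped, at 6.20, 6.13 and 5.90 in large replicates 1 to 3 against 5.72, 5.97 and 5.66 in small replicates 1 to 3, where small replicate 2 lay above large replicate 3. The log2 fold change was 0.29 ± 0.14 (95% confidence interval -0.03 to 0.62; limma adjusted p = 0.257). In the authors' deposited table the values were 71.1, 56.9 and 64.7 in large replicates 1 to 3, above the 35.5, 53.0 and 41.8 of small replicates 1 to 3, with no overlap. The log2 fold change on those values was 0.58 (limma adjusted p = 0.126). The other probe (ILMN_1256314), detected on 2 large and 3 small arrays, was at -0.01 ± 0.22 (95% confidence interval -0.52 to 0.50). Of 10 endothelial markers, all tested, none was called, with none at an unadjusted p under 0.05 (limma) and a median of -0.08, and their array levels overlapped between the groups.

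Of 19 further conventional dendritic cell genes, 10 were tested. By limma 1 fell and none rose, beside 1.68% of all genes called as lower. At an unadjusted p under 0.05 (limma) there were 5, beside 22.5% of all genes. The median was -0.41. Irf8, the factor that sets the Batf3-dependent and plasmacytoid lineages and is also induced by interferon in macrophages, had normalized log2 signals of 5.87, 5.90 and 6.08 in large replicates 1 to 3 against 7.38, 7.35 and 7.67 in small replicates 1 to 3. All 3 small tumors lay more than a log2 unit above every large tumor. It fell by 1.51 ± 0.13 on the log2 scale (limma adjusted p = 0.0161). The Irf8 call ended on omission of large replicate 1, of large replicate 3 or of small replicate 3. Mgl2 and Clec10a, lectins of the Irf4-dependent branch and of macrophages, were at -1.05 ± 0.27 and -1.35 ± 0.31 (limma adjusted p = 0.0904 and 0.0762). Itgae, the CD103 integrin chain of migratory cross-presenting dendritic cells and of tissue T cells, was at -0.83 ± 0.20, and Dpp4, a surface protease on these cells and on lymphocytes, was at -0.78 ± 0.21 (limma adjusted p = 0.0824 and 0.098). The groups did not overlap in Irf8 and those 4 genes, beside 29.6% of all genes tested (13.6% as lower in large tumors). Sirpa at 0.04, Id2 at 0.12, Tlr3 at -0.05, Cadm1 at 0.29 and Klf4 at 0.30, genes with wide expression outside dendritic cells, had groups that overlapped. Flt3, Xcr1, Clec9a and Cd209a, which define dendritic cells more narrowly, had no named probe and were not analysed here.

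The 3 maturation genes all had negative log2 fold changes, and none passed the test (limma, 1 at an unadjusted p under 0.05). Cd83, an immunoglobulin-family surface protein that stabilises MHC class II and Cd86 on mature dendritic cells, was detected on every array (probe ILMN_2865016). Its deposited signals were 201, 203 and 183 in large replicates 1 to 3 against 189, 217 and 334 in small replicates 1 to 3, and small replicate 1 lay within the range of the large tumors. Normalized log2 signals were 6.53, 6.44 and 6.29 in large replicates 1 to 3 against 7.56, 7.00 and 7.94 in small replicates 1 to 3, and no longer overlapped. The spread was wider in small (SD 0.48) than in large tumors (SD 0.12). Cd83 was at -1.08 ± 0.24 (95% confidence interval -1.64 to -0.52; limma adjusted p = 0.066), a 2.12-fold difference. It was called without small replicate 2 (-1.33, limma adjusted p = 0.0295), when tested only among genes detected on all 6 arrays (limma adjusted p = 0.0392), with a trended and robust prior (0.0288) and with array weights (0.0395).

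Ccr7, the receptor that guides mature dendritic cells and naive T cells to lymph nodes, was near the detection limit. Its probe (ILMN_2821118) was detected on 1 of 3 large and all 3 small arrays, with deposited signals of 123, 142 and 125 in large replicates 1 to 3 against 119.8, 142 and 122 in small replicates 1 to 3. The deposited signals overlapped and their means were close, 130.1 ± 10.7 in large and 128 ± 12.4 in small tumors (SD, n = 3). Normalized log2 signals were 4.88, 5.15 and 4.74 in large replicates 1 to 3 against 5.78, 5.67 and 4.97 in small replicates 1 to 3, where small replicate 3 lay below large replicate 2. Ccr7 was at -0.54 ± 0.23 (95% confidence interval -1.10 to 0.01; limma adjusted p = 0.230). A change of the size measured for Cd83 lies inside that interval.

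Fscn1, the actin-bundling protein fascin of dendritic processes and of invasive tumor cells, gave the brightest signals of the list. Deposited signals of its probe (ILMN_2630605) were 542, 432 and 330.1 in large replicates 1 to 3 against 357, 362 and 478 in small replicates 1 to 3. Their means were 435 ± 106 in large and 399 ± 68.6 in small tumors, the opposite order to the normalized values. Those were 8.55, 8.09 and 7.74 in large replicates 1 to 3 against 8.93, 8.12 and 8.65 in small replicates 1 to 3, overlapping. Fscn1 was at -0.44 ± 0.27 (95% confidence interval -1.08 to 0.21; limma adjusted p = 0.383). The largest value among large tumors was that of replicate 1, above small replicate 2 on both scales.

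Of 22 further maturation genes 14 were tested. By limma 2 fell and none rose, beside 1.68% of all genes called as lower. At an unadjusted p under 0.05 (limma) there were 8, beside 22.5% of all genes. All 14 had negative values, against 50.1% of all genes tested, with a median of -0.48. Traf1, an adaptor of TNF receptor signalling that NF-kB induces, had normalized log2 signals of 5.40, 5.74 and 5.61 in large replicates 1 to 3 against 6.83, 6.57 and 6.51 in small replicates 1 to 3, and fell by 1.05 ± 0.14 (limma adjusted p = 0.0324). Cd274, which encodes PD-L1 and is made by tumor cells and many myeloid cells, had values of 8.45 to 9.18 in large and 9.84 to 10.50 in small tumors and fell by 1.38 ± 0.25 (limma adjusted p = 0.0466). Costimulatory genes were uneven. Cd40 was at -1.12 ± 0.24 and Cd86 at -1.09 ± 0.25 (limma adjusted p = 0.0618 and 0.0742), with groups that did not overlap, while Cd80 was at -0.10 ± 0.18 (limma adjusted p = 0.799) with groups that overlapped. Relb and Nfkb2, the non-canonical NF-kB subunits of maturing dendritic cells, were at -0.28 ± 0.17 and -0.31 ± 0.21 (limma adjusted p = 0.373 and 0.429). Without large replicate 1, 2 or 3 or small replicate 1 or 3 no gene of this list was called. Cd274 was not called with the authors' processed values, without a detection filter or without small replicate 2, and with the replicate number as a block Traf1 was not called.

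**Figure D3:**
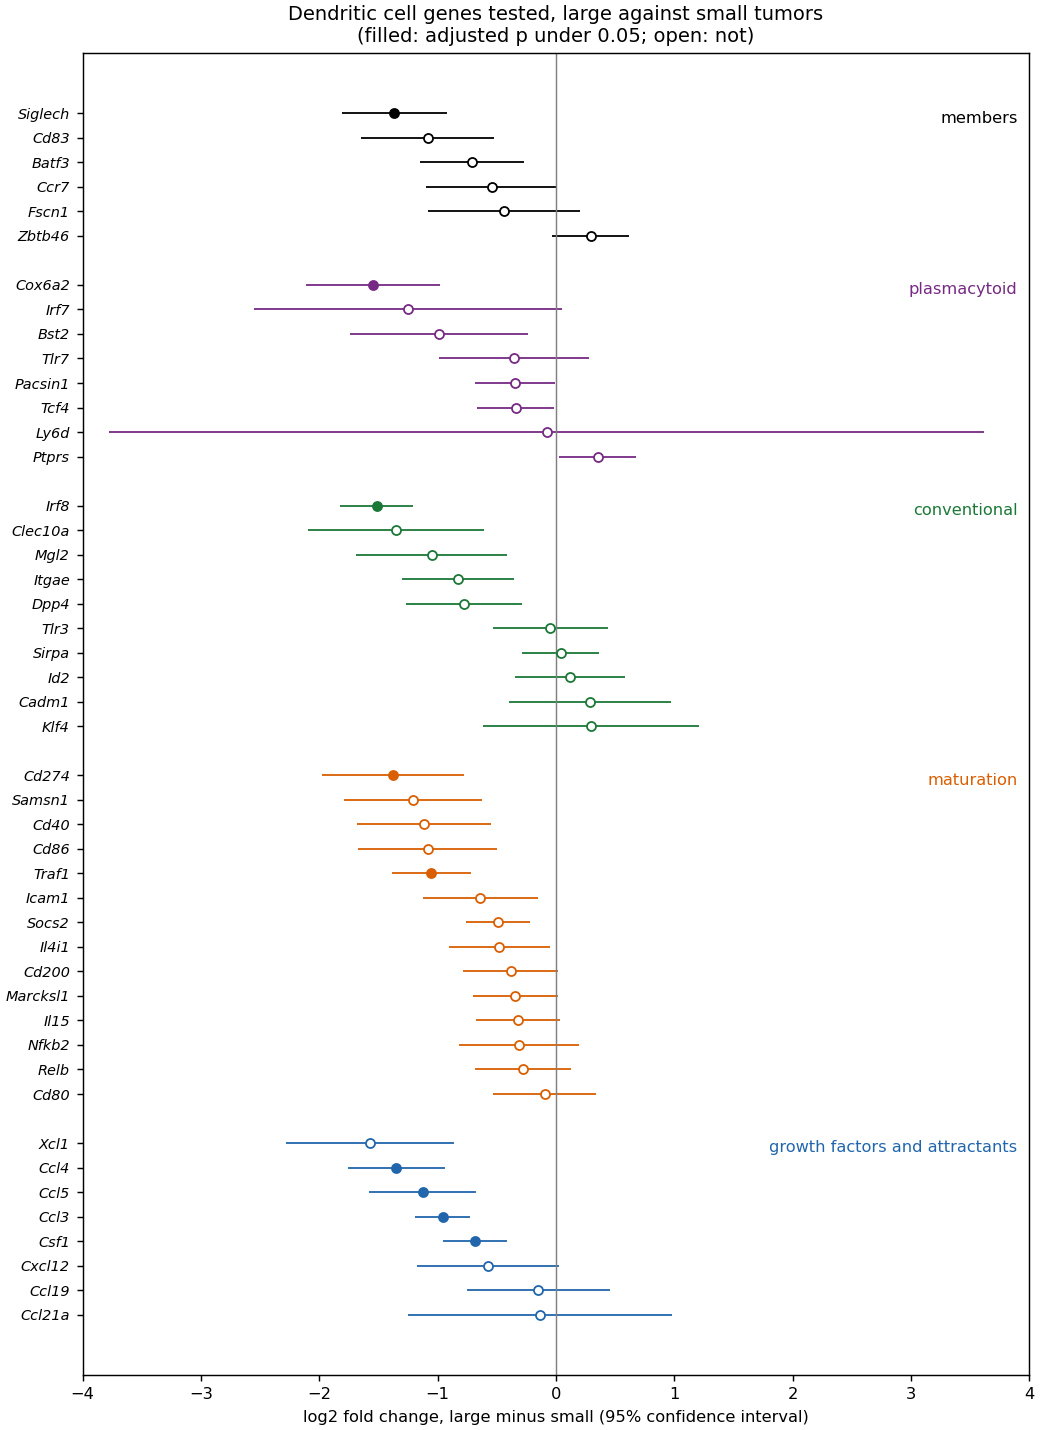
Log2 fold change, large minus small tumors (x axis), with 95% confidence intervals, for the 6 measured genes and the tested genes of 4 further lists. Filled points passed an adjusted p under 0.05. Siglech, Cox6a2, Irf8, Cd274, Traf1 and 4 attractant or growth factor genes are filled, all of them negative, and the positive values (Zbtb46, Ptprs, Sirpa, Id2, Cadm1 and Klf4) are all open.

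Of 11 growth factors and chemokines that act on dendritic cells 8 were tested. By limma 4 fell and none rose, beside 1.68% of all genes called as lower. At an unadjusted p under 0.05 (limma) there were 5, beside 22.5% of all genes. The list's median was -0.82. Ccl3 (log2 fold change -0.96 ± 0.10), Ccl4 (-1.35 ± 0.17) and Ccl5 (-1.13 ± 0.19) fell, chemokines that NK cells, T cells and myeloid cells make and that attract dendritic cell precursors (limma adjusted p = 0.0181, 0.0318 and 0.0414). Csf1, the macrophage growth factor, fell by 0.68 ± 0.11 (limma adjusted p = 0.0399) and was not called with the authors' processed values or with the replicate number as a block. Xcl1, the ligand of the Xcr1 receptor on cross-presenting dendritic cells, was at -1.57 ± 0.30 with groups that did not overlap (limma adjusted p = 0.0516). The lymph node chemokines that Ccr7 binds, Ccl19 at -0.15 ± 0.25 and Ccl21a at -0.13 ± 0.47, were detected on 3 and 4 arrays and had groups that overlapped (limma adjusted p = 0.773 and 0.901). None of the 8 was called without large replicate 1, 2 or 3 or small replicate 3. Without small replicate 1, Ccl3 alone was.

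Among markers of other cell types, the T cell, NK cell and skeletal muscle lists each held several genes that fell, the macrophage list 1, and the B cell, neutrophil, endothelial, keratinocyte and melanocyte lists none. Of 8 tested T cell markers (13 listed) 4 fell, beside 1.68% of all genes called as lower, with a list median of -1.21. Of the 8 values 7 were negative and 1, that of Cd8b1, was positive (0.25 ± 0.14, limma adjusted p = 0.335). With the mean of a gene's kept probes Cd8b1 was called as lower. Cd3d was at -1.55 and Cd6 at -1.47. No large tumor had a detected signal for Cd2 or Zap70. With each large array's lowest detected signal used instead, their means were 1.65-fold and 1.51-fold lower in large tumors on the neqc scale. These figures allow for no sampling error and hold for that scale only, so smaller differences are not excluded. Cd2 and Zap70 passed the detection filter only through the small tumors, where they were higher. With detection on all 6 arrays 3 T cell markers were tested, 1 fell (Cd3d) and the median was -0.57. Of 3 tested NK cell markers (9 listed) 2 fell, Nkg7 at -1.70 and Klrd1 at -1.15. Of 12 tested macrophage and monocyte markers 1 fell, Aif1 at -1.60, with a list median of -0.57. Unadjusted p-values (limma) were under 0.05 for 7 of these 12, beside 22.5% of all genes. The same held for 6 of the 8 T cell and all 3 NK cell markers. Of the 12 macrophage and monocyte values 10 were negative and 2, Mertk at 0.16 and Cx3cr1 at 0.22, were positive. None of these T cell, NK cell and macrophage calls held without large replicate 1, 2 or 3 or small replicate 3, and of the 10 muscle calls 0 held without large replicate 1 or 3 and 1 without small replicate 3. With the replicate number as a block, 0 T cell and 0 NK cell markers were called, and Cd2 and Zap70 were not called with offset 50, with quantile normalization alone or with the authors' processed values, which also left Cd3d uncalled. The T cell median was -0.72 with offset 50 and -0.46 with quantile normalization alone. Array levels of the T cell list were -0.65 to -0.45 in large and 0.36 to 0.92 in small tumors, and those of the muscle list were -1.17 to -0.83 and 0.75 to 1.39. Levels of the macrophage list overlapped, at -0.53 to 0.04 and -0.21 to 0.50. B cell markers were barely measured, with 2 of 10 tested, none called (limma, 1 at an unadjusted p under 0.05), Cd22 at -0.48 and Cd79b at -0.57, and Langerhans cell markers had no named probe. Keratinocyte (9 tested), neutrophil (4 tested) and melanocyte lineage markers (9 tested) had no called gene (limma, 0, 0 and 2 at an unadjusted p under 0.05) and medians of -0.52, 0.47 and 0.09. The first 2 medians changed sign when 1 array was left out. The keratinocyte median ran from -1.93 without large replicate 1 to 0.93 without large replicate 3 and was also positive without small replicate 2 (0.32) or 3 (0.54), and the neutrophil median was -0.22 without large replicate 1 and 1.12 without large replicate 3. Keratinocyte levels varied widely within each group, from -3.09 to 2.90 in large and from -3.03 to 2.08 in small tumors, with large replicate 1 and small replicates 2 and 3 high. All 9 melanocyte lineage values were positive, with array levels of 0.02 to 0.11 in large and -0.10 to -0.05 in small tumors. Of these genes Gpr143, at 0.56 ± 0.14, was called as higher with quantile normalization alone, a trended and robust prior, and array weights. Tyr, at 0.88 ± 0.23, was called with that prior. The part of T cell, NK cell, macrophage or muscle RNA in the values of Siglech, Cd83, Ccr7 and Irf8 was not tested.

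**Figure D4:**
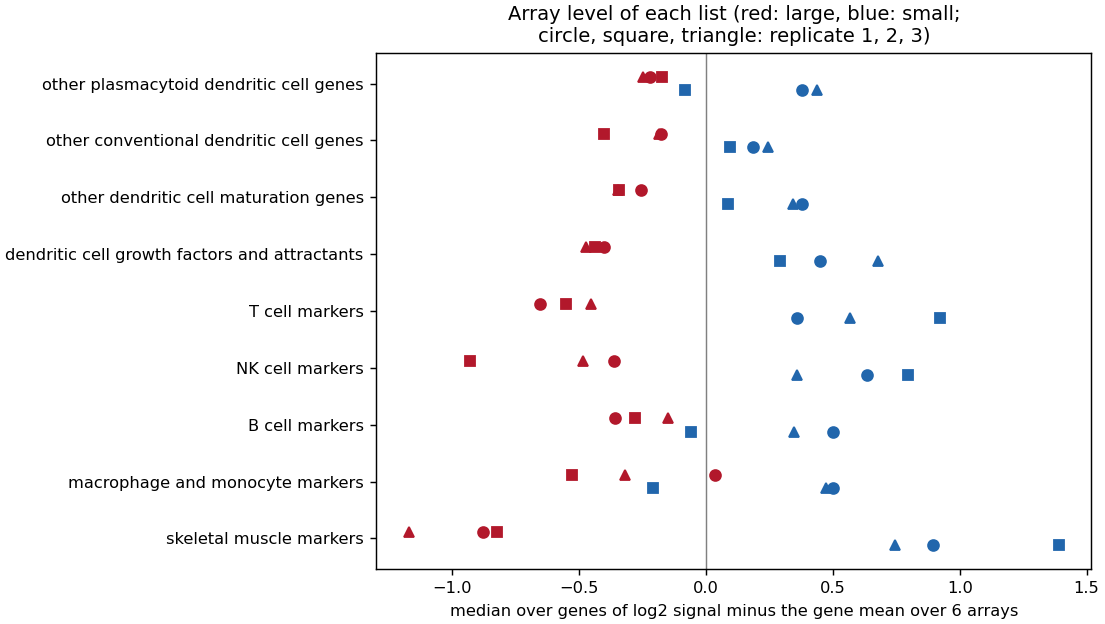
Array level of 9 lists (rows), as the median over tested genes of the log2 signal minus the gene's mean over 6 arrays (x axis). Red points are large and blue points small tumors, with circle, square and triangle for replicates 1 to 3. Levels of large and small tumors are apart for every list shown except the macrophage list. Among cell type lists not shown, the neutrophil, endothelial and keratinocyte levels overlapped and the melanocyte lineage levels were apart. Small replicate 2 is the lowest small tumor for the plasmacytoid, conventional, maturation, attractant, B cell and macrophage lists. It is the highest for the T cell, NK cell and muscle lists.

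Among small tumors, replicate 2 had the lowest normalized value of Siglech, Batf3, Cd83 and Fscn1. It had the highest value of the brighter Zbtb46 probe (5.97), and for Ccr7 replicate 3 was the lowest (4.97). Replicate 2 also had the lowest array levels of the other plasmacytoid (-0.08), conventional (0.10) and maturation (0.08) lists. The trait was not particular to those lists. Replicate 2 was also the lowest small tumor for the attractant (0.29), macrophage (-0.21), B cell (-0.06) and endothelial (-0.19) lists. It had the highest level of the T cell list (0.92), the NK cell list (0.80) and the muscle list (1.39). Replicates of a group have no known differences in the labels, so this is a description of 3 arrays.

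By Pearson correlation over the 6 arrays, the genes most like Siglech were Ctcf (0.998), Pptc7 (0.998) and Fignl1 (0.997), with coefficients over 0.95 for 205 of 10522 other genes. The same count was 147 for Batf3, 108 for Cd83, 74 for Fscn1, 33 for Ccr7 and 32 for Zbtb46. For Batf3 the 3 most alike were Timm10 (0.995), Paf1 (0.993) and Gpank1 (0.992), for Zbtb46 Churc1 (0.991), Pbx4 (0.989) and Cul2 (0.986), and for Cd83 Etf1 (0.994), Cnksr1 (0.990) and Dhx38 (0.990). For Ccr7 they were Dtnbp1 (0.996), Fsd2 (0.994) and Frmd8 (0.988), and for Fscn1 Smad1 (0.999), Abi1 (0.990) and Kcnk13 (0.990). None of these genes is on the dendritic cell lists. The 6 arrays share normalization and the split by tumor size, and the coefficients are given as a description only.

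**Figure D5:**
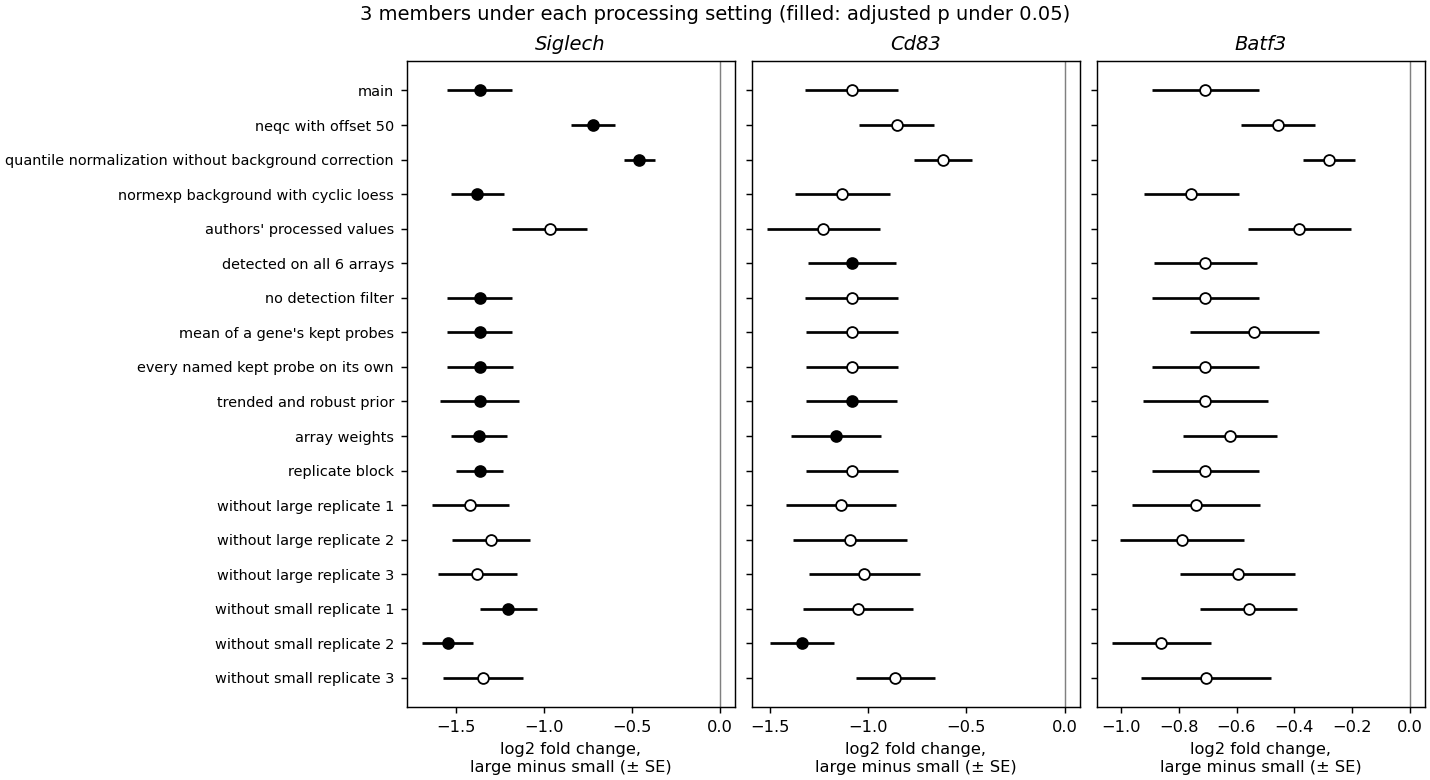
Log2 fold change of Siglech, Cd83 and Batf3 (x axis, large minus small, bars are SE) under each processing setting (rows), with filled points at an adjusted p under 0.05. All 3 genes stay left of 0 in every setting shown. Each comes nearest to 0 with quantile normalization without background correction, and Siglech has no value when detection on all 6 arrays is required.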

How the data were processed

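RNA of 6 tumors, 100 ng of each, was amplified, labelled and measured on Illumina bead arrays. Signal intensity per probe and a detection p-value per probe and array were deposited by the authors, and GenomeStudio is named per the submitters' processing notes, with no version or settings given in the sources used here. Processed intensities were also deposited by the authors for 20346 of the 45281 probes, with a lower bound of 28.8 and unstated background correction and normalization. The median of a column lay between 129 and 133 for large tumors and was 119.99, 130.2 and 132 for small replicates 1 to 3, and each column correlated best with its own array (at least 0.946 across probes, against at most 0.493 with another array).

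Here the raw signals went through neqc (offset 16, log2), from limma 3.58.1 run under R 4.3.3. Probes detected (p under 0.05) on at least 3 arrays were kept (19120, of which 16256 had 1 symbol). Among the probes the authors processed, 17300 had 1 gene symbol, 11 several and 3035 were unnamed here; 17278 Entrez identifiers matched RefSeq, with 0 symbols changed. A gene with several probes was represented by its brightest on average, which gave 10523 genes, and all 16256 named probes were also tested on their own (3.28% called). Large and small tumors were compared with lmFit and eBayes, with group as the only term and Benjamini-Hochberg adjustment over all genes or probes. Only 3 arrays per group limit the precision. The smallest exact permutation p for 3 against 3 single values is 0.1. The fit was tested on simulated data. No pair of arrays shared equal signals (0% of probes).

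The genes and lists were chosen with earlier results of these data known. Named genes were the 6 measured genes, up to 4 called genes of each further list or the 2 with the smallest p, and the 3 best correlated genes; other genes of the dendritic cell lists, such as Bst2, Cd40 and Xcl1, were named after their values were seen. Alternatives were other normalizations, the authors' table, other filters and probe rules, other variance models, a block for replicate number, and each array left out in turn.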

Additional observations from a re-analysis of the deposited data

How the results depend on the processing

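All 6 measured genes kept their direction in every alternative that gave a value, 17 for each gene and 16 for Siglech and Ccr7, which were not tested when detection on all 6 arrays was required. Siglech was called in 11 of 16 (limma adjusted p = 0.0134 to 0.114, log2 fold change -1.55 to -0.46), Cd83 in 4 of 17 and Batf3, Zbtb46, Ccr7 and Fscn1 in none (limma adjusted p = 0.0586 to 0.715). Of the 6 genes, 1 was called; this was 0 with the authors' processed values and 2, Siglech and Cd83, with a trended and robust prior and with array weights. With detection on all 6 arrays it was again 1, but Cd83. Leaving out an array gave 0 to 2 called of the 6 and 0 to 300 over all genes. Over all genes, 260 were called, against 405 with quantile normalization without background correction (181 higher, 224 lower), 402 with detection on all 6 arrays, 534 with every probe on its own, 656 with a trended and robust prior and 574 with array weights. Splits between higher and lower calls were 83 and 177 in the reported fit, 65 and 208 with cyclic loess, and 147 and 216 with offset 50.

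With the replicate number as a block, 109 genes were called (7 higher, 102 lower), Siglech among them (limma adjusted p = 0.042), and in the probe test 234 probes against 534. Deviations of same-numbered arrays from their group means correlated at -0.55, -0.07 and -0.45. Such deviations sum to 0 within each group of 3 arrays, so these coefficients cannot settle whether the numbers pair the samples. A shared day or batch was not tested. Medians of the 4 further dendritic cell lists stayed negative in all 17 alternatives. They were nearest to 0 with quantile normalization without background correction, at -0.25, -0.17, -0.37 and -0.51 for the plasmacytoid, conventional, maturation and attractant lists, and farthest from it at -0.66, -0.78, -0.57 and -0.96. The plasmacytoid median (-0.35 as reported) was -0.66 without large replicate 1, -0.65 without small replicate 1 and -0.61 with array weights, and the conventional median (-0.41) was -0.78 without a detection filter; the cause was not tested. Signals close to background limit what can be said of Siglech and Ccr7, whose probes were not detected on 3 and 2 of the 6 arrays.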
